A study of Mus musculus with 8 samples.

Results

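The 10 genes of the vascular growth factor system described here are the VEGF receptors Flt1, Kdr and Flt4, the co-receptor Nrp1, the VEGF ligands Vegfa, Vegfb and Vegfc, the angiopoietin receptor Tek, its relative Tie1, and the angiopoietin Angpt2. They were chosen by name, for what their products do, and are 10 of the 46603 genes in the count table. Earlier results of these data were known when they were chosen. RNA-seq was done on 8 libraries of liver cells from 4 mice, each of which gave 1 library of label-retaining cells (LLRCs) and 1 of cells without label (non-LRC cells). All mice were R26rtTA het/H2B-EGFP het, on a mixed C57BL/6 and CBA background, and had doxycycline through their nursing mothers from birth to postnatal day 5, so that both groups share the transgenes, the drug and the age of 8 weeks at the sort. Cells that have divided little since then keep the EGFP-tagged histone. LLRCs are the EGFP-positive and non-LRC cells the EGFP-negative fraction of EpCAM+CD45- nonparenchymal cells, a gate for bile duct epithelium, and the comparison asks how slow-cycling biliary cells differ from their faster-cycling neighbours. The activator comes from the ubiquitous Rosa26 locus, so the label itself is not restricted to bile ducts, and according to the study hematopoietic cells can carry EGFP without the drug. The sort carried no endothelial antibody in either direction.

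In mammals VEGF-A signals mainly through KDR (VEGFR2), while FLT1 (VEGFR1) binds VEGF-A and VEGF-B tightly and signals weakly, and FLT4 (VEGFR3) is the receptor of VEGF-C. Neuropilin 1 presents VEGF-A to KDR. Angiopoietin 1 activates TIE2, the product of Tek, angiopoietin 2 competes with it, and TIE1 sits in the same receptor complex. In liver the receptors are known above all from endothelial cells, including those of the sinusoids, VEGF-A from hepatocytes and biliary epithelium among others, and angiopoietin 2 mainly from endothelium.

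Flt1, Kdr, Flt4, Nrp1 and Tek each had less signal in every LLRC library than in any non-LRC library, with fitted levels 2.80-fold (Flt4) to 15.6-fold (Flt1) lower. Vegfa and Vegfb overlapped between the groups, and Tie1, Vegfc and Angpt2 did not pass the expression filter and were not tested. No gene of the genome passed the adjusted threshold of 0.05 in the quasi-likelihood test of edgeR: 0 of 13605 genes were called (0%), and so 0 of the 7 members tested. Without adjustment 5 of the 7 were below 0.05 and lower in LLRCs, where 3.56% of all genes tested were, and 0 were below 0.05 and higher (1.6% of all genes). Every LLRC library lay below every non-LRC library for the same 5 genes, against 1.91% of all genes tested, and the reverse held for 0 members and 2.15% of all genes. As a description, the median log2 fold change was -3.06 over the 7 members and -0.015 over all genes tested. Flt1, Kdr, Nrp1 and Tek are among the genes that the study lists as differing on these same samples, so that their direction is not independent evidence. DESeq2 called Flt1, Kdr, Flt4, Nrp1 and Tek with the same counts (it called 1.26% of all genes as lower), so whether a member passes depends on the test, while the direction was the same in both.

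Whole libraries varied too. Total counts ran from 7860021 to 9851819 in LLRC libraries (median 8788868) and from 4670132 to 8056103 in non-LRC libraries (median 5544286), and 3 counts correspond to between 0.291 and 0.626 CPM (read counts scaled by library size, with TMM factors). Cholangiocyte markers were read in all 8 libraries, with none of the 14 at 0 throughout and a summed level of 113800 to 220900 CPM in LLRCs and 65640 to 160900 CPM in non-LRC cells. Of the 14, all tested, 3 had a negative log2 fold change and the median was 0.3. Without adjustment 1 was below 0.05 and higher in LLRCs, and 0 were below 0.05 and lower. Markers of endothelial cells moved with the receptors: the 12 markers summed to 20.4 to 55.9 CPM in LLRCs and 140.6 to 797.5 CPM in non-LRC cells, none of the 12 was at 0 throughout, and 10 of the 11 tested were below 0.05 without adjustment and lower in LLRCs. The sum over 9 sinusoidal markers ran from 64.2 to 150.0 CPM in LLRCs and from 362.1 to 2110 CPM in non-LRC cells, with 8 of the 8 tested lower. The study lists 6 of the 12 and 5 of the 9. In sorted bulk samples fewer cells of a type and less RNA per cell cannot be told apart, and the part of endothelial cells in the receptor values was not tested. The ratios of the receptors to these markers are given further on. Leukocyte markers summed to 4.65 to 9.55 CPM in LLRCs and 5.43 to 19.4 CPM in non-LRC cells (Cd3e and Cd79a at 0), with 1 of the 2 tested below 0.05 without adjustment and higher in LLRCs, and 1 of the 10 lower without overlap. Hepatocyte markers summed to 2899 to 3294 CPM and 2122 to 6440 CPM, which overlap, but 5 of the 10 were below 0.05 without adjustment and lower in LLRCs, 9 of 10 had a negative log2 fold change and their median was -1.42. Stellate and mural markers summed to 2472 to 9947 CPM and 3519 to 9179 CPM, with 2 of the 6 tested lower and a median of -1.69. The part of either in the receptor values was not tested. Platelet markers summed to 2.04 to 4.85 CPM and 0.626 to 6.51 CPM (Ppbp at 0), and markers of pancreatic acinar cells to 1.89 to 7.46 CPM and 5.39 to 1103 CPM, the last in the non-LRC library of JV6314. The non-LRC libraries of JV621 and JV6314 stood apart in the number of genes with reads, with 14234 and 16042 against 18356 to 20430 in the other 6, and they held the highest values of Kdr and Nrp1. Without the non-LRC library of JV621 the log2 fold changes of Kdr and Nrp1 were -3.62 and -2.56, and without that of JV6314 they were -3.42 and -2.88.

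Tek, which encodes TIE2, lies on chromosome 4, 94739289 to 94874976 of GRCm38, on the plus strand. It had the smallest p of the members. In the order JV602, JV621, JV624 and JV6314, the LLRC libraries held 58, 49, 17 and 42 counts, or 5.62, 5.80, 2.50 and 4.66 CPM. The non-LRC libraries of the same mice held 247, 354, 436 and 343 counts, or 30.9, 73.9, 68.8 and 67.7 CPM. All 4 non-LRC libraries thus stood above all LLRC libraries, and 3 of them lay close together, with JV602 apart below them. The group means were 4.65 ± 1.51 CPM and 60.3 ± 19.8 CPM (SD, n = 4 each), or -3.69 in log2 fold change (standard error 0.45, adjusted p = 0.0809 by edgeR). Within the mice the log2 difference (CPM + 0.5) was between -4.53 and -2.36. Leaving out the non-LRC library of JV602 brought Tek past the threshold, at -3.92 with an adjusted p of 0.0378 by edgeR (0.0425% of all genes were then called as lower), as did leaving out the expression filter (adjusted p = 0.049 by edgeR, with 0.0362% of all genes lower).

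Flt1, on the minus strand of chromosome 5 from 147561604 to 147726011, had the largest fold of the 7 members tested in the main fit. This order changed in some settings. Without the LLRC library of JV602, Flt1 was at -3.685 in log2 fold change, Kdr at -3.698 and Tek at -3.786. The LLRC libraries of Flt1 held 10, 37, 19 and 17 counts, or 0.969, 4.38, 2.79 and 1.89 CPM. Its non-LRC libraries held 108, 298, 239 and 222 counts, or 13.5, 62.2, 37.7 and 43.8 CPM. The lowest non-LRC library, JV602, thus stood well above the highest LLRC library, JV621. The means were 2.51 ± 1.45 CPM and 39.3 ± 20.1 CPM (SD, n = 4 each), or -3.97 in log2 fold change (standard error 0.64, adjusted p = 0.0989 by edgeR). Of the members tested, Flt1 varied least from mouse to mouse, with log2 differences of -3.26, -3.69, -3.54 and -4.21 and an SD of 0.40. The gene also makes a soluble form that lacks the kinase, which counts per gene do not separate from the receptor.

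Kdr (chromosome 5, 75932827 to 75978458, minus strand) held 47, 33, 37 and 69 counts in the LLRC libraries, or 4.56, 3.90, 5.44 and 7.66 CPM. It held 163, 461, 363 and 625 counts in the non-LRC libraries, or 20.4, 96.3, 57.3 and 123.3 CPM. JV6314 was the highest library in both groups, and the non-LRC library of JV602 again came closest to the LLRC range. The means of 5.39 ± 1.64 CPM and 74.3 ± 45.0 CPM (SD, n = 4 each) differed by -3.78 on the log2 scale (standard error 0.58, adjusted p = 0.0809 by edgeR). The step within a mouse ran from -2.05 in JV602 to -4.46 in JV621. With the non-LRC library of JV602 left out, the log2 fold change of Kdr was -4.10 and its adjusted p 0.0378 by edgeR.

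Nrp1 (chromosome 8, 128358604 to 128503363, plus strand) was the most abundant receptor gene. Its 4 LLRC libraries stood at 20.9, 29.7, 36.6 and 36.0 CPM, from 216 to 324 counts. Its non-LRC libraries stood at 82.5, 480.5, 121.5 and 343.7 CPM, from 659 to 2301 counts. The non-LRC libraries fell into a lower pair, JV602 and JV624, and a higher pair, JV621 and JV6314, while the LLRC libraries were close together. The means were 30.8 ± 7.28 CPM and 257.1 ± 188.2 CPM (SD, n = 4 each), or -3.06 in log2 fold change (standard error 0.58, adjusted p = 0.124 by edgeR). A microRNA gene, Mir1903, shares 0.818% of the exon bases on the same strand.

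Flt4 (chromosome 11, 49609263 to 49652739, plus strand) differed least of the 5. It stood at 7.66, 5.44, 7.94 and 11.9 CPM in the LLRC libraries (79, 46, 54 and 107 counts) and at 12.5, 32.2, 22.1 and 25.5 CPM in the non-LRC libraries (100, 154, 140 and 129 counts). The ranges nearly met: the highest LLRC library, JV6314, lay just under the lowest non-LRC library, JV602. The means of 8.23 ± 2.68 CPM and 23.1 ± 8.17 CPM (SD, n = 4 each) gave -1.48 in log2 fold change (standard error 0.43, adjusted p = 0.519 by edgeR). Of the settings tried, DESeq2 without the mouse as a term was the only one that called Flt4 (adjusted p = 0.0329).

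For each of these 5 genes the exact two-sided permutation p between the groups was 0.029, the smallest that 4 libraries against 4 can give, and LLRCs were lower in 4 of 4 mice. Groups without overlap always give this p, so it restates the lack of overlap, and it ignores the mouse. A sign-flip test over 4 mice cannot pass 0.05. With the mouse as a replicate block, edgeR gave adjusted p-values of 0.194 for Flt1, 0.232 for Tek, 0.248 for Kdr, 0.335 for Nrp1 and 1.000 for Flt4, whereas DESeq2 with the same block called 4 of them (not Flt4), where it called 1.5% of all genes as lower. The edgeR exact test on unfiltered counts (0.323% of all genes lower) and a newer quasi-likelihood dispersion (0.448%) also called these 4.

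Tie1 (chromosome 4, 118471191 to 118490061, minus strand) was not tested, since it did not pass the expression filter. Its LLRC libraries held 0, 3, 1 and 3 counts, at or below the floor of 3. Its non-LRC libraries held 19, 0, 56 and 53 counts, or 2.38, 0, 8.84 and 10.5 CPM. The gene was therefore lower in LLRCs in 3 of 4 mice and absent from the reads of the non-LRC library of JV621, in which Tek had 354 counts. In that library a count of 0 allows up to 0.626 CPM, by counting error alone. The exact permutation p was 0.143.

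**Figure D1:**
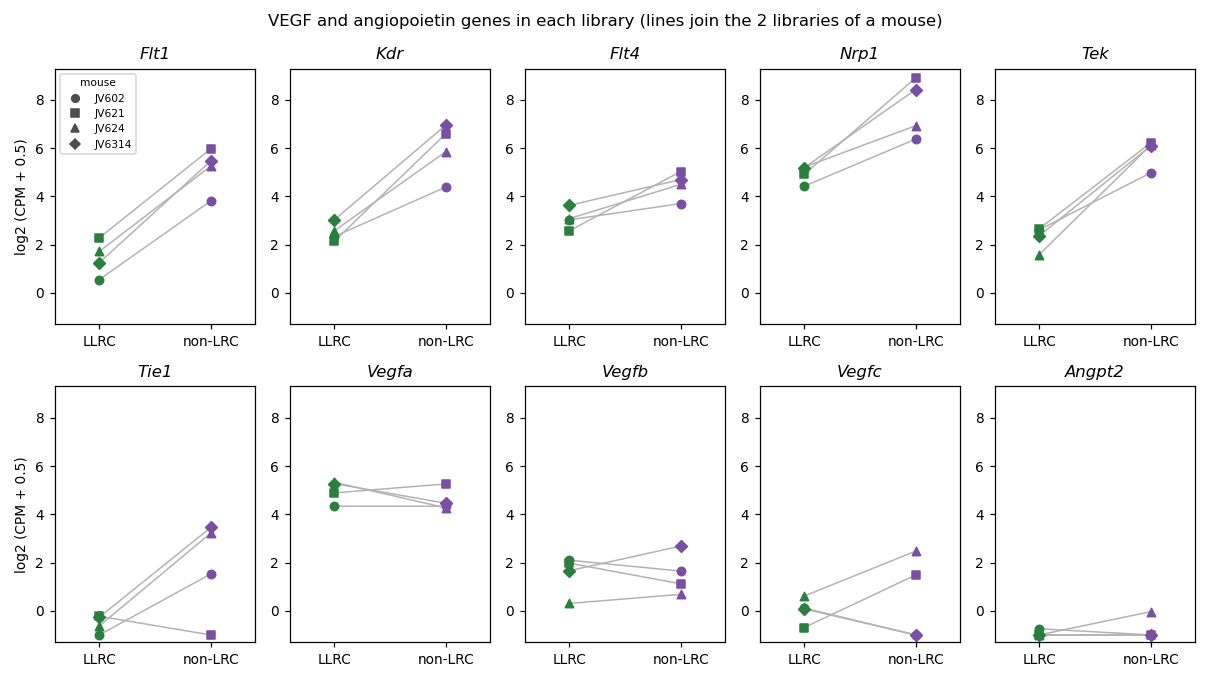
Level of each of the 10 genes in each library, as log2 (CPM + 0.5), with LLRC libraries in green, non-LRC libraries in purple and a line joining the libraries of a mouse. The lines of Flt1, Kdr, Flt4, Nrp1 and Tek all climb from LLRC to non-LRC with no overlap, those of Vegfa and Vegfb cross, and Tie1 breaks the pattern at JV621, where the non-LRC library held 0 counts.

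The promoter sequences of the 3 kinase receptors that differed most, and of Vegfa, whose groups overlapped, are shown so that members that moved together can be read beside one that did not. They are RefSeq sequence of GRCm38.p6, end next to the annotated start of the gene (for Vegfa a few bases before it) and run 5′ to 3′ on the strand of the gene. Capitals mark GGAA on either strand (TTCC when read on the strand of the gene), the core bound by factors of the ETS family, several of which act in endothelial cells. They are chr4:94739039-94739288 (plus strand) for Tek, chr5:147726012-147726261 (minus) for Flt1, chr5:75978459-75978705 (minus) for Kdr and chr17:46032378-46032627 (minus) for Vegfa.
Tek: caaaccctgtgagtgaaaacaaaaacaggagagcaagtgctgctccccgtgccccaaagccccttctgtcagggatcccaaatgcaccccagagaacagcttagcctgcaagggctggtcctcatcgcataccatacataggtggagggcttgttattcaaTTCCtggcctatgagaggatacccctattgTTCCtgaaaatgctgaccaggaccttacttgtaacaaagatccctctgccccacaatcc
Flt1: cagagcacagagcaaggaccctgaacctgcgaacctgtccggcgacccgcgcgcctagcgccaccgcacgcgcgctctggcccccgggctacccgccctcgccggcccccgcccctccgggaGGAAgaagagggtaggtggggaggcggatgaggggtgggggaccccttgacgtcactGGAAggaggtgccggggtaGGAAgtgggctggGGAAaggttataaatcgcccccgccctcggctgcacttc
Kdr: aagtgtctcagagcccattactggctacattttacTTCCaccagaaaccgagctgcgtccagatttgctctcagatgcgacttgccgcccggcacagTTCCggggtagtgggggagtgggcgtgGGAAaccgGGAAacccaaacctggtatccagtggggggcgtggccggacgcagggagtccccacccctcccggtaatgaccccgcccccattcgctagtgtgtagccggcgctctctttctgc
Vegfa: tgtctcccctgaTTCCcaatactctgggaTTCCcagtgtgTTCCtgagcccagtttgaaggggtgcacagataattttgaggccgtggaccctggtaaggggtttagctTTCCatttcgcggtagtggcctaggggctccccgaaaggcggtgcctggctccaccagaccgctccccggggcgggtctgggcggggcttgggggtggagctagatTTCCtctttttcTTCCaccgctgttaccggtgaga
The core was found 2 times before Tek, 4 times before Flt1, 4 times before Kdr and 6 times before Vegfa. It is short and common: 93.4% of 32851 promoters of 250 bases hold it, with a median of 3. Of all promoters 76.8% hold at least 2, 33.4% at least 4 and 8.69% at least 6. Vegfa thus held more cores than any of the 3 receptors, and a match describes the letters only.

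Vegfa (chromosome 17, 46016993 to 46032369, minus strand), the main VEGF ligand, was read at similar levels on both sides of the sort. Its LLRC libraries stood at 19.7, 29.1, 39.7 and 38.2 CPM, from 203 to 344 counts. Its non-LRC libraries stood at 19.7, 37.8, 18.8 and 21.5 CPM, from 109 to 181 counts. JV602 stood level between the groups at the low end of the LLRC range, the non-LRC library of JV621 reached its upper part, and the ranges overlapped. The means of 31.7 ± 9.27 CPM and 24.4 ± 8.98 CPM (SD, n = 4 each) differed by 0.37 on the log2 scale (standard error 0.38, adjusted p = 0.9999 by edgeR, exact permutation p = 0.257). JV624 and JV6314 were higher in LLRCs (1.06 and 0.81), JV602 stood level at 0.00, and JV621 was lower (-0.37). The splice forms of Vegfa are counted together.

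Vegfb (chromosome 19, 6982473 to 6987651, minus strand), a ligand of FLT1, stood at 3.78, 3.43, 0.735 and 2.67 CPM in LLRCs against 2.63, 1.67, 1.11 and 5.92 CPM in their non-LRC counterparts. With 5 to 39 counts a library its log2 fold change was -0.09 with a standard error of 0.72 (adjusted p = 0.9999 by edgeR), and its sign depended on which library was left out. Vegfc (chromosome 8, 54077606 to 54187096, plus strand), the ligand of FLT4, held 6, 1, 7 and 5 counts in LLRC libraries and 0, 11, 32 and 0 in non-LRC libraries, with an exact permutation p of 0.686. It was thus found in all 4 LLRC libraries and in the non-LRC libraries of JV621 and JV624, the highest of all being JV624. Angpt2 (chromosome 8, 18690263 to 18741562, minus strand), the competitor of angiopoietin 1, had 1 count in the LLRC library of JV602, 3 in the non-LRC library of JV624 and 0 in the other 6 libraries. Both groups were at or under the floor, so no fold is given.

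Levels were compared between genes as CPM per kilobase of exon. In LLRCs Vegfa was the most abundant of the 10, at 7.39 ± 2.16 CPM per kb (SD, n = 4), and was highest in 4 of 4 libraries. Nrp1 followed at 3.15 ± 0.74 CPM per kb and Vegfb at 1.65 ± 0.85 CPM per kb, with Nrp1 above Vegfb in 3 of 4 libraries. Flt4 and Tek, at 1.00 ± 0.33 and 0.986 ± 0.321 CPM per kb, changed places in 2 of 4 libraries and could not be ordered. Kdr (0.597 ± 0.182 CPM per kb) stood above Vegfc (0.233 ± 0.152 CPM per kb) in all 4 libraries. Flt1 (0.186 ± 0.108 CPM per kb) stood below Vegfc in 3 of 4 and above Tie1 in all 4, so that among the tested members it was the least abundant in LLRCs.

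In non-LRC cells receptors headed the order. Nrp1 had 26.3 ± 19.2 CPM per kb (SD, n = 4), the highest of the 10 in 3 of 4 libraries, and Tek had 12.8 ± 4.20 CPM per kb and was the highest in JV624. Tek stood above Kdr (8.23 ± 4.99 CPM per kb) in all 4 libraries, and Kdr above Vegfa (5.70 ± 2.10 CPM per kb) in 3 of 4. Flt1 (2.91 ± 1.49 CPM per kb) and Flt4 (2.80 ± 0.99 CPM per kb) were within their spread of each other, with Flt1 above in 3 of 4 libraries. Flt4 and Vegfb, Tie1 and Vegfc, and Vegfc and Angpt2 were each in this order in 2 of 4 libraries only. The ligand Vegfa thus had the highest mean of the members in LLRCs and a lower mean than Nrp1, Tek and Kdr in non-LRC cells.

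**Figure D2:**
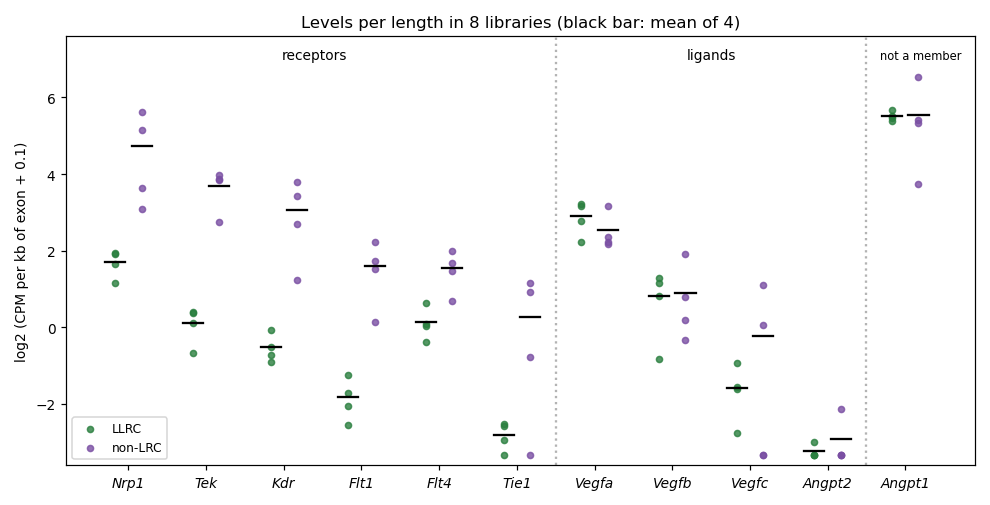
Level per length of each member and of Angpt1, as log2 (CPM per kb of exon + 0.1), with 1 point per library, LLRC in green, non-LRC in purple, and a black bar at the log2 of the mean of 4. In LLRCs Vegfa lies above every receptor, and in non-LRC cells Nrp1 and Tek have higher means than Vegfa.

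The endothelial markers give a yardstick against which the members could be read. Within each group the libraries stood in the same order by the sum over the 12 markers as by Flt1, with JV602 lowest and JV621 highest in both (20.4, 34.6, 31.9 and 55.9 CPM in LLRCs of JV602, JV624, JV6314 and JV621, and 140.6, 372.8, 456.6 and 797.5 CPM in the non-LRC libraries). Expressed as log2 of the gene minus log2 of the summed markers in the same library (0.5 CPM added to both), Flt1 stood at -3.63 ± 0.19 in LLRCs and -3.41 ± 0.17 in non-LRC cells (SD, n = 4). This left a difference of -0.22 between the groups, with overlapping ranges. Kdr had a difference of 0.03, Tek of -0.09 and Nrp1 of 0.73, all with overlapping ranges. The differences of Flt1, Kdr and Tek relative to the markers were thus much smaller than their fold changes in CPM. Against sinusoidal markers the differences of the 3 were -0.55, -0.30 and -0.42, and against the 6 markers that the study does not list they were -0.81, -0.56 and -0.68, again with overlapping ranges. Nrp1 was at 0.40 and 0.14 against the same 2 sets, so that its excess over the markers depended on the set.

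On the same scale Flt4 did not overlap between the groups. It stood at -2.01 ± 0.89 relative to the 12 markers in LLRCs and at -4.06 ± 0.48 in non-LRC cells (SD, n = 4), so that all 4 LLRC libraries lay above all non-LRC libraries. The difference was 2.05, and it was 1.72 against sinusoidal markers and 1.46 against markers that the study does not list, without overlap in any of the 3. For Vegfa the difference was 3.83 (-0.13 ± 0.55 and -3.96 ± 0.77), again without overlap. Epcam, the epithelial gene of the sort, had a difference of 3.57, Vegfb of 3.43 and Angpt1 of 3.71, also without overlap, so that genes with little difference in CPM come out at this size. Flt4 thus lay between Epcam and Vegfa on the one side and Flt1, Kdr and Tek on the other.

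The markers of lymphatic endothelium, another site of Flt4, summed to 452.2 to 538.1 CPM in LLRCs and 373.5 to 486.4 CPM in non-LRC cells, with Ccl21a and Mmrn1 at 0 in every library and 0 of 3 tested below 0.05 without adjustment. The list also holds Prox1, which hepatocytes express too, and Reln, which is on the stellate list as well. Their part in the level of Flt4 was not tested. The large vessel list, at 13430 to 15630 CPM and 8554 to 12990 CPM, also holds Clu, an abundant gene that other cells make. Of the 8 genes tested 4 were below 0.05 without adjustment and lower in LLRCs, 0 were below 0.05 and higher, 6 had a negative log2 fold change, and the median was -3.28. Of all 9, 3 were lower and 1 higher in LLRCs without overlap.

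Pairs of receptors were compared directly, in a test added after the values had been seen. For the 10 pairs among Flt1, Kdr, Flt4, Nrp1 and Tek, the log2 ratio of the pair in each library was compared between the groups. The 4 pairs that include Flt4 had no overlap: the ratio of Flt1 to Flt4 was lower in LLRCs by a log2 difference of -2.27 (SD over mice 0.81), that of Kdr to Flt4 by -2.02 (SD 0.62), and that of Flt4 was higher over Tek by 2.14 (SD 0.91) and over Nrp1 by 1.32 (SD 0.78). Each had an exact permutation p of 0.029, the smallest possible, and 0.073 after adjustment over the 10 pairs, which misses the threshold. With 4 of 10 pairs at the smallest p the adjusted value could not be lower, so it decides nothing. The 4 pairs share Flt4 and are not separate results, and the permutation ignores the mouse. The other 6 pairs overlapped, with exact permutation p-values from 0.086 to 0.8. Flt1 over Kdr differed by -0.25 (SD 0.81) and Kdr over Tek by 0.12 (SD 0.90), sizes below the spread between mice.

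**Figure D3:**
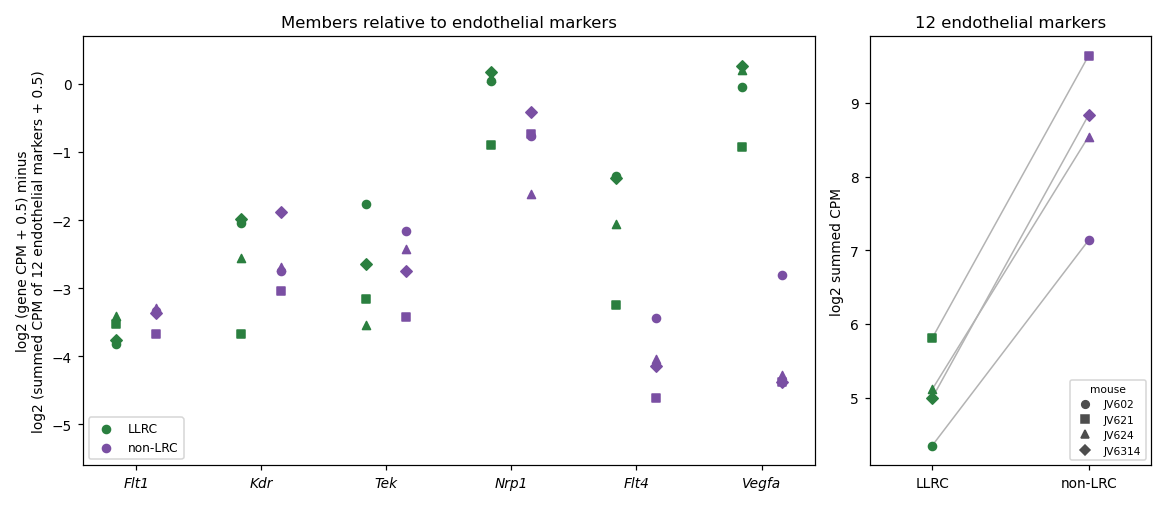
Left, 6 members relative to the summed CPM of 12 endothelial markers in the same library, on the log2 scale, with LLRC in green, non-LRC in purple and a symbol for each mouse. Right, log2 of that sum in each library. Flt1, Kdr and Tek overlap between groups, while Flt4 and Vegfa are higher in every LLRC library, by 2.05 and 3.83 on average, and the sum itself is higher in every non-LRC library.

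Of 46 further genes of the pathway, 34 were tested, 12 did not pass the filter and 2 of these (Angpt4 and Egr3) had no reads. None had an adjusted p below 0.05 by edgeR. DESeq2 called 2 (Ptprb and Plxnd1) as lower, where it called 1.26% of all genes as lower. Without adjustment 4 were below 0.05 and lower in LLRCs (3.56% of all genes were), 0 were below 0.05 and higher (1.6% of all genes were), and 30 were neither. The median log2 fold change over the 34 was -0.158. Ptprb and Plxnd1 are also listed by the study as differing.

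The 3 co-receptors and phosphatases of the list were among these 4. Ptprb, the phosphatase that acts on TIE2 (VE-PTP), stood at 5.23, 19.9, 31.5 and 10.8 CPM in LLRCs against 65.4, 476.7, 151.5 and 220.2 CPM in their non-LRC counterparts, or -3.76 in log2 fold change (standard error 0.75, adjusted p = 0.144 by edgeR) with no overlap. Without the non-LRC library of JV621 it was at -3.10, and without both libraries of JV624 at -4.41. Relative to the 12 endothelial markers its difference was -0.20, with overlapping ranges. Plxnd1, a semaphorin receptor, had 2 to 4 counts in LLRC libraries and 16 to 167 in non-LRC libraries (log2 fold change -4.98, standard error 1.03, adjusted p = 0.161 by edgeR). Nrp2, the neuropilin that works with FLT4, was at -3.13 in log2 fold change (standard error 1.31, adjusted p = 0.924 by edgeR). Its groups overlapped, as the LLRC library of JV621 held 48 counts and the other 3 held 2 to 4. Without that library the log2 fold change of Nrp2 was -5.42, and with the non-LRC or both libraries of JV6314 left out it was -2.46 or -2.10. Its adjusted p was 0.256 in DESeq2, 0.0244 in DESeq2 with the mouse as a block (1.5% of all genes called as lower) and 1.000 in edgeR with the same block. Plxnd1 was at -3.54 without the non-LRC library of JV621, where it had 167 counts. The other one was Rasip1, a regulator of small GTPases in endothelial junctions, at 1.06 ± 1.03 CPM in LLRCs against 4.51 ± 1.20 CPM in their non-LRC counterparts (SD, n = 4; adjusted p = 0.832 by edgeR). Its log2 fold change was -2.07, and -2.91 without the LLRC library of JV621. Of its exon bases 20.4% are shared with Izumo1 on the same strand.

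Angpt1, the activating ligand of TIE2, was the most abundant ligand gene. It stood at 237.4 ± 20.6 CPM in LLRCs against 244.3 ± 170.9 CPM in their non-LRC counterparts (SD, n = 4), or -0.04 in log2 fold change (standard error 0.49, adjusted p = 0.9999 by edgeR), whose sign turned under several settings. The LLRC libraries were close together, at 218.0, 238.0, 227.8 and 265.8 CPM, whereas the non-LRC libraries spread from 68.7 CPM in JV624 to 478.8 CPM in JV621. Per length it stood at 45.6 ± 3.96 CPM per kb in LLRCs and 46.9 ± 32.8 CPM per kb in non-LRC cells, above all 10 members in 7 of 8 libraries, with Tek higher in the non-LRC library of JV624. Of its exon bases 14.2% are shared with Gm17473 on the other strand. As the counting took no strand, reads there cannot be assigned to 1 of the 2 genes. Among the other ligands, Vegfd held 6, 12, 5 and 0 counts in LLRC libraries and 0 in every non-LRC library, and Pgf (placental growth factor) had 12 counts in the LLRC library of JV6314 and 0 elsewhere. Neither was tested.

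Among signalling genes next to the receptors, 17 of 20 were tested and Rasip1 alone was below 0.05 without adjustment, with log2 fold changes from -2.07 to 0.61. Nck1, an adaptor of KDR, was the most abundant of them, at 131.7 ± 29.1 CPM in LLRCs against 101.6 ± 26.8 CPM in their non-LRC counterparts. The genes that regulate Vegfa in hypoxia were all tested, and 0 of 7 was below 0.05, with log2 fold changes from -0.94 to 0.33. Epas1 (HIF2A) was at the lower end and had no overlap between groups, at 64.8 ± 5.59 CPM and 123.9 ± 85.4 CPM (unadjusted p = 0.053 by edgeR). The higher mean rests on the non-LRC library of JV621 at 251.8 CPM, the other 3 being at 75.9, 81.1 and 86.8 CPM. Hif1a stood at 115.9 ± 20.3 CPM and 92.0 ± 55.6 CPM, with the non-LRC library of JV6314 at 12.4 CPM. Of the semaphorins 3 of 4 were tested and 0 was below 0.05, the most abundant being Sema3c at 205.2 ± 56.4 CPM and 138.1 ± 93.0 CPM, with the non-LRC library of JV621 at 12.3 CPM. Of 8 genes that VEGF induces in endothelium 3 were tested and 0 was below 0.05. Kcne3, a potassium channel subunit and the most abundant of these, differed by mouse and not by group: it stood at 1163, 46.8, 31.6 and 826.5 CPM in LLRCs against 1149, 68.9, 26.7 and 878.6 CPM in their non-LRC counterparts of JV602, JV621, JV624 and JV6314.

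**Figure D4:**
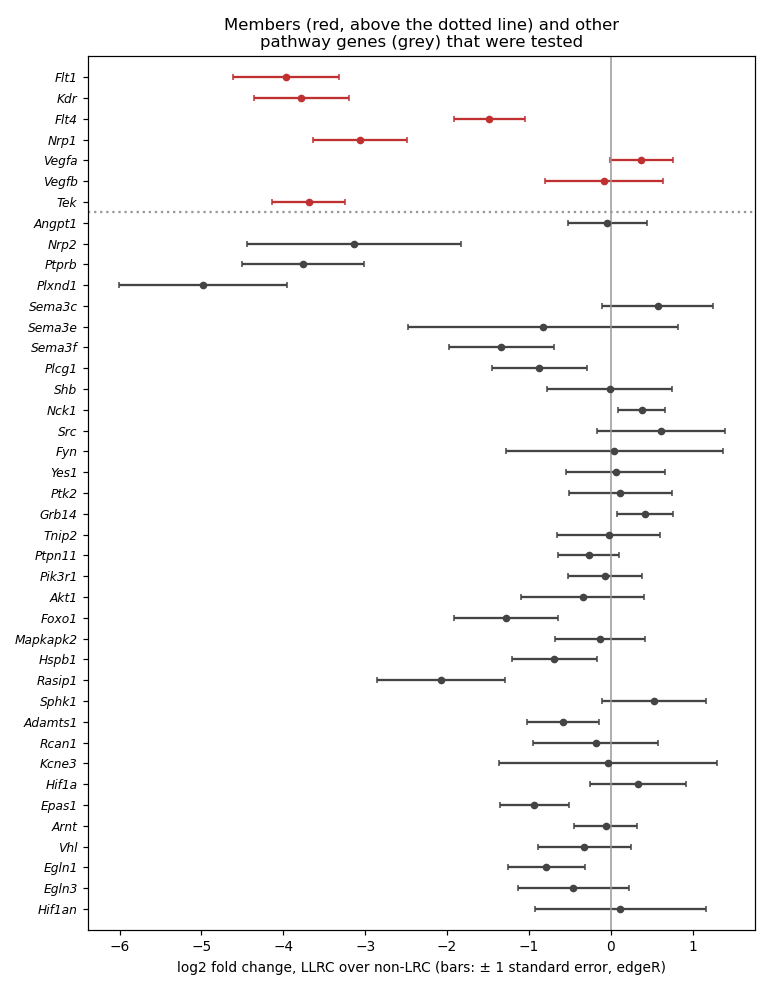
Log2 fold change (LLRC over non-LRC) with 1 standard error for the 7 members tested (red) and the 34 other pathway genes tested (grey). Flt1, Kdr, Flt4, Nrp1 and Tek, together with Nrp2, Ptprb, Plxnd1 and Rasip1, lie to the left of 0, and Vegfa, Vegfb and Angpt1 lie within 1 standard error of 0.

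Likeness was ranked only among genes that passed the filter and were not members, further pathway genes or genes of the marker lists. Of these, the genes most like the mean of Flt1, Kdr, Tek and Tie1 in log2 CPM over the 8 libraries were Hsd11b1 (Pearson r = 0.986), Mgp (0.979), Lrrc32 (0.976), Tmem204 (0.976), Slc43a3 (0.974), Entpd1 (0.971), Aqp1 (0.967) and Gata4 (0.966). The study lists 6 of them (not Mgp and Gata4). These r values are given as a description only: the libraries fall into the 2 groups of the sort, so any gene that separates them scores highly. Aqp1, a water channel, stood at 5.89 ± 2.01 CPM in LLRCs against 99.5 ± 54.3 CPM in their non-LRC counterparts (SD, n = 4). Among the same ranked genes, those most like Vegfa were others: Ube2b (r = 0.974), Srp14 (0.973), Nckap1 (0.952), A330023F24Rik (0.951) and Skil (0.947). All 5 overlapped between the groups, as with Ube2b at 346.5 to 509.2 CPM in LLRCs and 291.4 to 547.3 CPM in non-LRC cells.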

How the data were processed

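RNA of sorted cells was extracted with a kit for small samples and sequenced as a service. The deposited table holds raw counts, not normalized, which the authors made with HTSeq in union mode, on exons and without strand, on Ensembl genes of GRCm38.p4. The aligner is not given in the sources used here. A second table with the authors' own edgeR 3.2.4 comparison (fold changes and p-values) was not used. 0 columns belonged to samples outside the series.

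The mouse of each library was read from its label, and the 4 mice are separate animals. Symbols, coordinates and exon lengths come from GENCODE M21 for GRCm38, or symbols from a table of gene names (46005 of 46603 identifiers, 598 without one), and promoter sequences from RefSeq (GRCm38.p6, a window for 9 of the 10 members). Genes that passed filterByExpr (13605) were tested in R 4.3.3 with the quasi-likelihood test of edgeR 4.0.16 at default settings, with TMM factors (0.816 to 1.23), the group as the only term, and Benjamini-Hochberg adjustment over all genes. The standard errors are not an output of this test. They were derived as the absolute log2 fold change over the square root of its F statistic. DESeq2 1.42.0 and limma 3.58.1 served for alternatives. CPM values are TMM-scaled, and 0.5 CPM was added before log2 values of single libraries. A library's floor was 3 counts, which covers counting error only. Exact permutation tests were two-sided.

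Each animal gave both its libraries, so the mouse pairs them. The study's methods state no pairing, and the block is an alternative. Across genes, the 2 libraries of an animal deviated from the group means with correlations of 0.096 in JV602, 0.074 in JV621, 0.003 in JV624 and 0.171 in JV6314.

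The members and gene lists were chosen with earlier results of these data known. Named were all members, every further pathway gene with an unadjusted p below 0.05, the most abundant gene of each role, and the 8 and 5 genes most correlated with the receptor mean and with Vegfa. Members, further pathway genes and genes of the marker lists were left out of that ranking by correlation. Epas1, the untested Vegfd and Pgf, the receptor pairs and the 6 endothelial markers not listed by the study were chosen after their values were seen. On simulated data with the dispersion of these libraries the test recovered 87 of 200 genes given a log2 change of 3, among 13605, with 4 false calls, and 171 of 200 given one of 5, with 8 false calls. Alternatives were other scalings, filters and tests, a block for the mouse, and fits without each library or mouse.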

Additional observations from a re-analysis of the deposited data

Results flagged for a closer look

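In 35 groups of 4 libraries, for the members and the named pathway genes, the highest or lowest library was compared with the rest by Dixon's test. It stood apart in 5 of the 35. The nominal rate of about 1 in 20 holds for independent, normally distributed values. These groups share libraries and some rest on few counts, so no excess is read from the number. Vegfa had 37.8 CPM in the non-LRC library of JV621, above the 18.8 to 21.5 CPM of the other 3. Tek had 30.9 CPM in the non-LRC library of JV602, below the 67.7 to 73.9 CPM of the others. Nrp2 had 5.68 CPM in the LLRC library of JV621, above 0.194 to 0.588 CPM in the others. Plxnd1 had 34.9 CPM in the non-LRC library of JV621, above 3.13 to 6.95 CPM. Hif1a had 85.6 CPM in the LLRC library of JV624, below 123.0 to 127.6 CPM. JV621 thus supplied 3 of the 5, and its non-LRC library also had the highest endothelial sum of the series (797.5 CPM), whose part in these values was not tested.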

How the results depend on the processing

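The log2 fold changes of Flt1 (-4.37 to -3.36), Kdr (-4.10 to -3.12), Flt4 (-1.70 to -1.12), Nrp1 (-3.39 to -2.20), Tek (-4.03 to -3.41) and Vegfa (0.14 to 0.71) kept their sign in all 23 alternatives. The count of members without overlap was tried only with other scalings and with libraries or mice left out. It stayed at 5, except for 6 without the non-LRC library of JV621 and without both libraries of JV621. The number of calls depended on the test. DESeq2 called 221 genes, among them 5 members and 2 other pathway genes. The edgeR exact test without a filter called 115 genes (4 and 2), the newer quasi-likelihood dispersion 73 (4 and 1), and the default test without a filter 11, among them 1 member, Tek. With the mouse as a replicate block DESeq2 called 312 genes (4 members and 3 others), while edgeR with the paired block called 0 (569 genes were below 0.05 unadjusted). With 1 library or mouse left out, 0 to 6 genes and 0 to 2 members were called, the 6 and the 2 without the non-LRC library of JV602. The cause was not tested. The block moved the median log2 fold change of all genes from -0.015 to 0.143 in edgeR and from -0.052 to 0.112 in DESeq2. In limma, which called 0 genes, it was 0.101.

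Signs that turned were all of genes near 0, with adjusted p above 0.7. Vegfb was at 0.10 by limma and between -0.40 and 0.56 with libraries or mice left out. Angpt1 was at 0.019 with upper-quartile scaling, 0.006 by library size, 0.001 without a filter (quasi-likelihood and exact test), 0.61 by limma, and 0.25 and 0.21 with the block in edgeR and DESeq2, and between -0.36 and 0.52 with libraries or mice left out. Kcne3 was at 0.001 without a filter in both tests and between -0.81 and 0.68 with libraries or mice left out, and Hif1a between -0.06 and 0.63. A larger pseudocount of 2 CPM moved the mean difference of Flt1 within mice to -3.08. In LLRC libraries Tek rested on 17 to 58 and Flt1 on 10 to 37 counts, which limits their precision, and Tie1, Vegfc and Angpt2, which the main filter left out, were called in 0 of the 9, 3 and 2 settings that tested them.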
